A study of Mus musculus domesticus and Mus musculus molossinus with 8 samples.

Results

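The major urinary protein genes described here are 7 of 23284 genes in the deposited tables: Mup1, Mup2, Mup3, Mup4, Mup5, Mup20 and Mup21. They were taken by gene symbol from both tables, and all 7 had a value in each of the 8 libraries. Major urinary proteins are small lipocalins, barrel-shaped carriers that mouse liver secretes into blood and the kidney passes into urine, where they hold and slowly release pheromones. Their genes lie side by side in one cluster, are mostly copies of one another, and in liver depend on growth hormone, with higher levels in males of common laboratory strains. Mup20 encodes darcin, a male scent protein that attracts females, and the proteins of Mup4 and Mup5 are best known from secretory glands of the head rather than from liver.

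The RNA came from liver and thymus of 4 mice aged 8 weeks, and each library was polyadenylated RNA of 1 organ from 1 mouse. The strains were C57BL/6 (B6), on which the mouse reference genome is built, and MSM/Ms (MSM), an inbred strain derived from Japanese wild mice. In each strain 1 mouse was untreated and 1 was injected intraperitoneally with 1.5 µg of MegaFasL, a multimeric form of the ligand of the death receptor Fas. The labels used here state neither sex, nor the time between injection and dissection, nor any pooling of animals. Each of the 8 combinations of strain, tissue and treatment was therefore 1 library with no replicate of its own.

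Levels are in FPKM, fragments scaled to transcript length and to the mapped fragments of the library. From the spacing of low values, 1 fragment on a Mup transcript of usual length was estimated to stand for 0.775 to 0.873 FPKM in liver and 0.401 to 0.488 FPKM in thymus. A level that 3 fragments would give, used below as a floor for each library, was 2.32 to 2.62 FPKM in liver and 1.2 to 1.46 FPKM in thymus, and it covers counting error only. All 18 hepatocyte markers reached 1 FPKM in every liver and all 11 thymocyte markers in every thymus, so each organ carried the markers of its label. Xist, the RNA of the inactive X chromosome, stood at 73.0 to 148 FPKM in all 8 libraries, and the 4 Y-linked genes measured were listed at 0 in each. Such values are those of female mice, in both strains alike. Bulk RNA cannot tell fewer cells of a type from less RNA per cell.

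In each of 2 libraries the summed markers of the other organ stood above those of the like libraries. In the MSM untreated thymus the 18 hepatocyte markers summed to 4015 FPKM, against 77.2 to 290.2 FPKM in the other thymi. In the B6 untreated liver the 11 thymocyte markers summed to 40.0 FPKM, against 4.67 to 6.56 FPKM in the other livers. Of the thymocyte markers, 1 was listed at 0 in that liver and 3 to 5 in the others. None of the hepatocyte markers was at 0 in any thymus.

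How far the levels of single Mup genes can be told apart depends on their sequences. In mm10 (GENCODE M21 annotation) the cluster spans chr4:59956804-62150863 and holds 22 protein-coding Mup genes and 26 Mup pseudogenes. All 7 genes lie on the minus strand, Mup4 at chr4:59956804-59960710, Mup2 at chr4:60135932-60154289, Mup1 at chr4:60498012-60501960, Mup5 at chr4:61831319-61835233, Mup20 at chr4:62050234-62054158, Mup3 at chr4:62083476-62087342 and Mup21 at chr4:62147932-62150863. The lines below give 120 coding bases of exon 2 from each gene, read 5′ to 3′ in the sense of the mRNA. They were chosen as the stretch within 1 exon where Mup3 differs most from Mup1, and capitals mark bases unlike Mup1 at the same aligned position.
Mup1: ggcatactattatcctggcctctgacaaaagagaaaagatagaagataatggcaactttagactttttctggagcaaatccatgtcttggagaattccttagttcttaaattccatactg
Mup2: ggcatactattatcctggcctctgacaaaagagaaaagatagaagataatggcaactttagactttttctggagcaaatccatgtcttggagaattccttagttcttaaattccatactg
Mup20: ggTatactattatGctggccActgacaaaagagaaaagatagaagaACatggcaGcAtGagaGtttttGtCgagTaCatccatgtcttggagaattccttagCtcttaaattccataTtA
Mup4: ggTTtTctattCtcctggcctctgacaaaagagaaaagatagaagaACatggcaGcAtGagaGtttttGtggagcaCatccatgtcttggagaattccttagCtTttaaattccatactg
Mup5: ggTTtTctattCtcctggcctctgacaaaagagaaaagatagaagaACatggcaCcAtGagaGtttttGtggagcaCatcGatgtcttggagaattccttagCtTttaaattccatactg
Mup3: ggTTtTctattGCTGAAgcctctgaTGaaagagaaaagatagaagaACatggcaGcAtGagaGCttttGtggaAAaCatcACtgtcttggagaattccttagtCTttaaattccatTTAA
Mup21: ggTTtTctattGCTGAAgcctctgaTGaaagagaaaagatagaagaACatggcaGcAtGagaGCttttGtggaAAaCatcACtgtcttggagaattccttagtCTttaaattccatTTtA

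The stretch lies at chr4:60501283-60501402 in Mup1, chr4:60139220-60139339 in Mup2, chr4:62053481-62053600 in Mup20, chr4:59960040-59960159 in Mup4, chr4:61834556-61834675 in Mup5, chr4:62086801-62086920 in Mup3 and chr4:62150196-62150315 in Mup21. Mup1 and Mup2 are identical in it, whereas Mup20 differs from Mup1 at 16 bases, Mup21 at 29 and Mup3 at 30. Over the whole coding sequence Mup1 and Mup2 differed at 3 of 540 aligned bases, an identity of 99.4%. The other close pair was Mup3 and Mup21, at 95.6% identity, while Mup1 and Mup3 shared 83.7%.

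A read can be placed in a single gene only where its sequence occurs nowhere else. Of all 100-base stretches of the Mup1 transcript, 87.2% occurred unchanged in another annotated gene, most often Mup12, and 97.3% of those of Mup2 did. For Mup20 the share was 38.8%, found in the pseudogene Mup-ps19. It was 2.94% for Mup3, 4.5% for Mup21 and 1.33% for Mup5, and 0% for Mup4. Most 100-base stretches of Mup3, Mup4, Mup5 and Mup21 were thus their own. The split of fragments between Mup1, Mup2 and other copies of the cluster is uncertain. Such a share does not show where the fragments of a low gene came from when a relative is far higher. These shares describe the C57BL/6 reference. How far MSM copies depart from it was not tested, and reads from divergent MSM genes can be lost or placed in another copy.

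**Figure D1:**
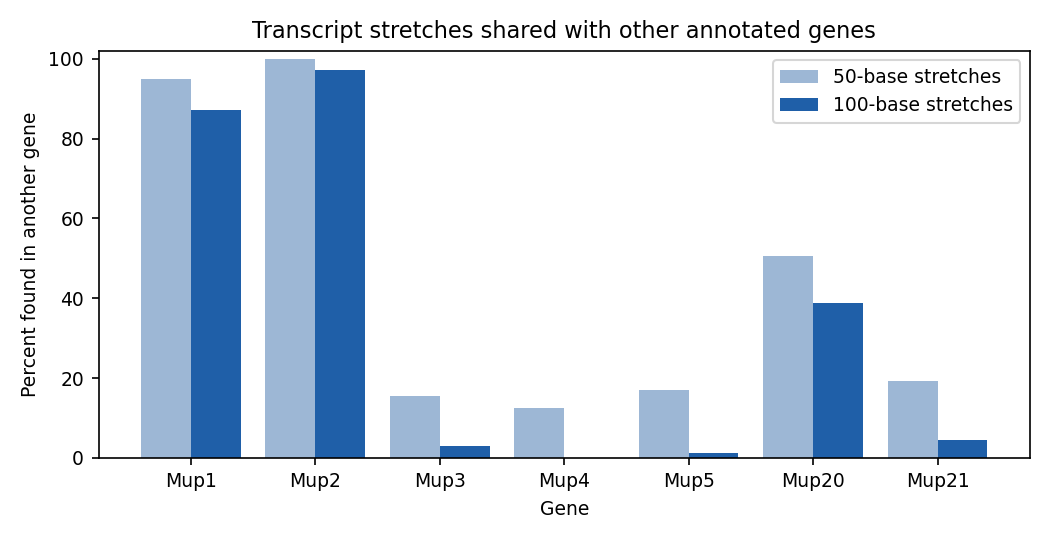
Percent of all 50-base (light bars) and 100-base (dark bars) stretches of each Mup transcript that occur unchanged in a transcript of another annotated gene. Mup1 and Mup2 stand at 87.2% and 97.3% for 100 bases, Mup3 at 2.94%.

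The Mup genes with the highest assigned levels in liver differed between the strains. These are levels assigned to genes of the reference. Whether reads from divergent MSM genes were lost or placed in another copy was not tested. B6 livers were led by Mup3, at 3781 FPKM untreated and 2517 FPKM injected. MSM livers held Mup3 at 31.1 and 19.8 FPKM and were led by Mup1 and Mup20. Both treatments showed the same leading gene or genes in each strain.

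Mup3 encodes a liver-secreted member of the group and was 122-fold lower in the MSM than in the B6 untreated liver, and 127-fold lower in the injected pair. On the log2(FPKM + 1) scale used for all tests, the strain difference (MSM minus B6) was -6.90 ± 0.18 (SE, n = 2 mice per strain, 1 per treatment; limma adjusted p = 0.00195). The SE of a strain difference reflects its change from the untreated to the injected pair, shrunk towards that of other genes, and not the spread among like mice. In estimated fragments, the B6 levels of Mup3 rested on 4802 and 3503 and the MSM levels on 42.1 and 24.5.

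Mup21, the close relative of Mup3 in sequence, stood at 16.5 and 13.1 FPKM in the B6 livers, at 1.05 FPKM in the MSM untreated liver and at 0 in the MSM injected liver. Mup21 has a shorter transcript, and its floor in the MSM injected liver was 3.99 FPKM. The MSM values were below it, and the B6 injected level was at least 3.27-fold higher than in MSM. The strain difference was -3.46 ± 0.36 (limma adjusted p = 0.0329). Both members of this pair were thus listed lower in MSM, at very different levels. The B6 levels of Mup21 rested on an estimated 12.8 and 11.1 fragments, against 4802 and 3503 for Mup3. Whether fragments of Mup3 were placed in Mup21 was not tested. The Mup21 difference can therefore not be read as separate from that of Mup3.

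Mup1, one of the group of near-identical copies, went the other way. It stood at 519 FPKM in the MSM untreated and 321 FPKM in the MSM injected liver, against 4.10 and 7.49 FPKM in B6. The ratio was 126-fold untreated and 42.9-fold injected, and the strain difference was 5.96 ± 0.38 (limma adjusted p = 0.0083). In estimated fragments, the B6 levels of Mup1 rested on only 4.8 and 9.7. With 87.2% of its 100-base stretches shared with other genes, these ratios depend on how fragments were split among the copies.

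Mup2, nearly identical to Mup1, stood at 97.0 and 68.6 FPKM in the B6 livers. It was at 3.10 FPKM in the MSM untreated liver, 31.3-fold lower, and at 0 in the MSM injected liver, where B6 was at least 26.2-fold higher. The strain difference was -5.35 ± 0.43 (limma adjusted p = 0.0162). Given the sequence shared by Mup1 and Mup2, the assignment of fragments between them is uncertain. The level of Mup1 and Mup2 together was higher in both MSM livers than in both B6 livers, at much smaller ratios than for Mup1 alone.

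Mup20, the darcin gene, was above 100 FPKM in all 4 livers. It stood at 478 FPKM in the MSM untreated and 698 FPKM in the MSM injected liver, against 141 and 107 FPKM in B6, or 3.40-fold and 6.50-fold higher in MSM. The strain difference was 2.22 ± 0.28 (limma adjusted p = 0.0451). Of the 100-base stretches of Mup20, 38.8% also occur in the pseudogene Mup-ps19. How shared fragments were split was not tested.

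Mup4 was listed at 0 in all 8 libraries. Mup5 was at 0 in 7 libraries and at 0.830 FPKM, about 1 fragment, in the B6 injected liver. At this depth neither was detectable above the floor.

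Of the 7 genes, 5 passed the filter of a mean of 1 FPKM over the 4 livers, and all 5 passed the limma threshold, 2 higher and 3 lower in MSM. Over all 10971 genes tested, 1.47% passed, 0.51% higher and 0.957% lower. Mup2 and Mup21 passed the filter through their B6 levels alone, so the count of 5 is a description. When each of the 4 livers was omitted in turn, none of the 5 genes passed the limma threshold, with every sign as before and an adjusted p for Mup3 of 0.0603 to 0.265. In those reduced fits 0 genes of the whole table passed, and 821 to 1229 had an unadjusted p under 0.05.

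**Figure D2:**
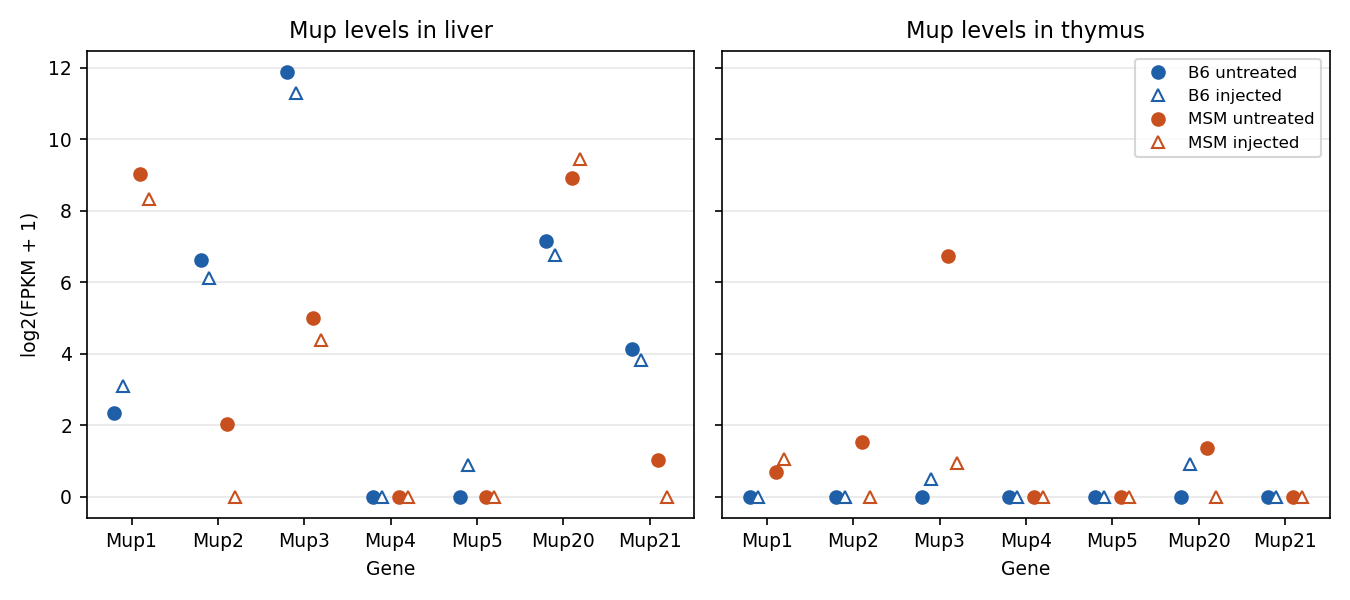
Level of each Mup gene as log2(FPKM + 1) in the 4 livers (left) and 4 thymi (right), 1 point per library, blue for B6, orange for MSM, filled circles untreated and open triangles injected. In liver Mup1 and Mup20 lie higher in MSM, and Mup2, Mup3 and Mup21 lie higher in B6. In thymus only Mup3 in the MSM untreated library is far from 0.

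The 7 genes summed to 4039 and 2715 FPKM in the B6 untreated and injected livers, and to 1032 and 1039 FPKM in the MSM livers. The MSM minus B6 difference of the summed level was -1.68 on the log2 scale, in the same direction in both treatments, and an exact permutation test of 2 against 2 livers gave p = 0.333, the smallest it allows. Mup3 made up 93.6% and 92.7% of the sum in B6, untreated and injected. In MSM its share was 3.01% and 1.91%, Mup1 held 50.2% and 30.9%, and Mup20 held 46.3% and 67.2%. Mup20 held 3.48% and 3.95% in B6.

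The 13 other Mup genes in the tables added little to these sums. Together they stood at 105 and 178 FPKM in the B6 livers and 78.9 and 33.5 FPKM in the MSM livers, or 2.53% to 7.11% of all 20 Mup genes. The highest of them in any liver was Mup9, at 64.4 FPKM in the B6 injected liver, named here after its values were seen.

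**Figure D3:**
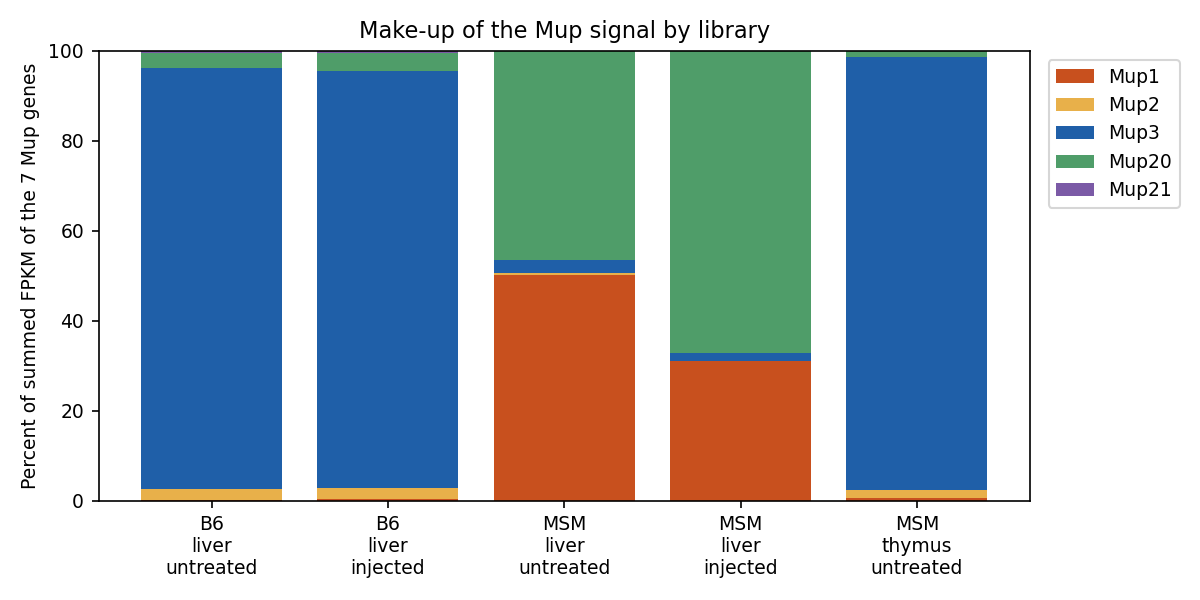
Share of each Mup gene in the summed FPKM of the 7 genes, in the 4 livers and the MSM untreated thymus (bars from 0 to 100%). Mup3 takes over 90% in both B6 livers and in the MSM untreated thymus, and Mup1 and Mup20 take most of both MSM livers. Mup4 and Mup5 are not drawn because they add at most 0.0306%, and Mup21, at most 0.481%, is hardly visible.

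Liver genes known for a sex-biased level also parted the strains. Of 16 male-biased genes listed, 13 were tested, 6 were higher in MSM liver and 0 lower, where 0.51% and 0.957% of all genes were, with a median difference of 2.54 against 0.01 over all genes. Of these 6 genes, 4 were at 0 in both B6 livers and passed the filter through MSM alone, so the count and the median are descriptions. Cyp4a12b, a fatty acid hydroxylase gene, was at 154 and 143 FPKM in MSM and listed at 0 in B6. Ugt2b38, a glucuronosyltransferase gene, was at 43.0 and 51.2 FPKM in MSM and at 0 in B6. The other male-biased genes that rose were Susd4, Cyp4a12a, Cyp2d9 and C6.

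Of 20 female-biased genes, 9 were lower in MSM and 1, Hao2, was higher, where 0.957% and 0.51% of all genes were. The list median was -2.97. Sult3a1, named after its values were seen, was not called but stood at 105 and 219 FPKM in B6 and 1724 and 971 FPKM in MSM. The summed level of the list was 2739 and 4608 FPKM in the B6 livers and 3289 and 3072 FPKM in the MSM livers. Of the 9, Cyp2b9, A1bg and Acot3 passed the filter through B6 alone, so the count and the median are descriptions. Cyp2b9, a cytochrome P450 gene, was at 435 and 359 FPKM in the B6 livers and at 0.690 and 0 FPKM in the MSM livers. A1bg, a plasma glycoprotein gene, was at 226 and 202 FPKM in B6 and 0.713 and 1.18 FPKM in MSM.

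Growth hormone acts on Mup genes through the receptor-bound kinase JAK2 and the transcription factor STAT5b. Of 19 genes of this route and of liver transcription factors, 1 was lower in MSM liver and 0 higher. Over all genes 0.957% and 0.51% were, and the list median was -0.13. The gene that fell was Socs2, a STAT5 target that dampens growth hormone signalling, at 55.5 and 67.9 FPKM in B6 and 3.48 and 5.35 FPKM in MSM (difference -3.55 ± 0.25, limma adjusted p = 0.0112). Bcl6, which encodes a repressor that competes with STAT5 for its sites, stood at 2.57 and 2.70 FPKM in B6 and 21.4 and 14.0 FPKM in MSM, a difference of 2.33 ± 0.31 that missed the threshold (limma adjusted p = 0.0523). Onecut1 (-1.71) and Cux2 (-1.60), which encode liver transcription factors, did not pass.

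Of 21 other lipocalins listed, 10 were tested in liver, with a median of -0.62. Of these, 1 was lower in MSM and 0 higher, where 0.957% and 0.51% of all genes were. The one that fell was Orm1, an acute-phase carrier protein gene, at 836 and 904 FPKM in B6 and 144 and 178 FPKM in MSM. Orm3 (2.75), Lcn12 (1.83) and Orm2 (-1.17) did not pass. Of 18 hepatocyte markers 0 passed in liver by limma at an adjusted p, where 1.47% of all genes did. The list median was 0.22, and the marker furthest from 0 was Fabp1 at -0.78. Kupffer cell markers summed to 232 and 121 FPKM in B6 and 39.9 and 28.2 FPKM in MSM. Of 6 tested, 2 were lower in MSM and 0 higher, where 0.957% and 0.51% of all genes were. None of the 6 was at 0 in any liver, and their part in the Mup differences was not tested.

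**Figure D4:**
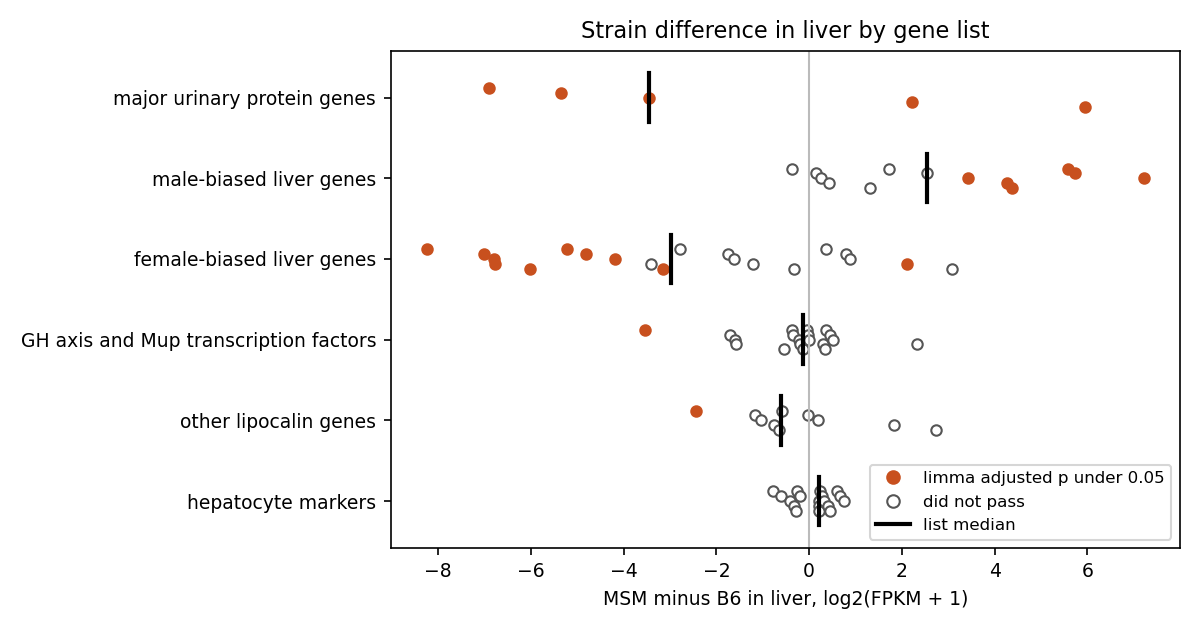
Strain difference (MSM minus B6) in liver for each tested gene of 6 lists, on the log2(FPKM + 1) scale. Filled points passed the limma threshold, open points did not, and black bars are list medians. Mup genes lie on both sides of 0, male-biased genes mostly above 0 and female-biased genes mostly below it.

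The genes most like each Mup gene across the 8 libraries were found by the root mean square distance between log2 profiles, each centred on its own mean, among 6624 genes. Nearest to Mup1 were the cytochrome P450 genes Cyp2c39, at a distance of 0.42, Cyp4a32 (0.92) and Cyp2d9 (0.96). In the livers Cyp2c39 reached 396 and 517 FPKM in MSM, against 5.89 and 13.1 FPKM in B6. Nearest to Mup2 were Cyp2b13 (0.42), Cyp2c38 (0.44) and Hsd3b3, a steroid dehydrogenase gene (0.55).

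The nearest gene to Mup3, Cyp2d26, lay at a distance of 1.25, followed by Ugt3a2 (1.42) and Cyp4a14 (1.43), and all of these were higher in B6 liver. Mup20 was nearest to Fetub (0.66), which encodes a plasma protease inhibitor, Aldh1a7 (0.67) and Upb1 (0.69). Mup21 was nearest to Ildr2 (0.38), Sdr9c7 (0.39) and Gstm3 (0.42). The 8 profiles share strain and tissue, and these distances are descriptions.

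Thymus carried almost no Mup RNA except in 1 library. In the B6 untreated thymus all 7 genes were listed at 0. The B6 injected thymus held Mup3 at 0.420 FPKM and Mup20 at 0.867 FPKM, and the MSM injected thymus held Mup1 at 1.08 FPKM and Mup3 at 0.909 FPKM, all below the floor. The MSM untreated thymus held Mup3 at 106 FPKM, from an estimated 235 fragments, with Mup2 at 1.90, Mup20 at 1.55 and Mup1 at 0.597 FPKM.

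That Mup3 level was at least 95.4-fold higher than in the B6 untreated thymus, where 3 fragments on the longer Mup3 transcript would give 1.12 FPKM. It exceeded the 31.1 FPKM of the liver of the same MSM mouse. In this library Mup3 made up 96.3% of the Mup sum, a share near those of the B6 livers and far from the 3.01% of the MSM untreated liver. The Mup sum was 6.23% of the level of the serum albumin gene Alb, against 6.47% in the B6 untreated liver and 1.39% in the MSM untreated liver.

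The Mup3 level of this thymus was 2.81% of the B6 untreated liver level and 342% of the MSM one. The 18 hepatocyte markers stood at 2.25% to 3.59% of the B6 untreated liver (median 2.89%) and at 1.74% to 5.11% of the MSM untreated liver (median 3.00%). Cyp2b9, at 12.1 FPKM in this thymus, was at 2.77% of the B6 liver, and the MSM untreated liver held it at 0.690 FPKM. A1bg was at 5.24 FPKM, or 2.32% of the B6 liver level, against 0.713 FPKM in the MSM untreated liver. Cyp4a14 was at 12.4 FPKM, 2.61% of the B6 liver level, and the MSM untreated liver held it at 4.53 FPKM. Sult2a2, a female-biased sulfotransferase gene, was at 3.29 FPKM, which was 1.12% of the B6 liver level and 61.3% of the MSM one.

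Genes higher in MSM than in B6 liver were not alike there. Mup1 stood at 0.115% and Mup20 at 0.325% of the MSM untreated liver level, and Mup20 at 1.10% of the B6 one. Cyp4a12b stood at 0.210% of the MSM liver level, and Ugt2b38 was at 0. Susd4 stood at 3.27% of the MSM untreated liver level, with 1.55 FPKM against 0 to 1.62 FPKM in the other thymi. Hsd3b5 and Selenbp2, male-biased genes named after their values were seen, stood at 3.96% and 2.03%, from low levels of 0.504 and 0.949 FPKM in this thymus. The other male-biased genes called in liver, Cyp4a12a, Cyp2d9 and C6, stood at 0.681%, 0.135% and 0.915%, from at most 0.805 FPKM. The same library held gland and airway markers at a sum of 1195 FPKM, against 5.51 to 13.9 FPKM in the other thymi, with 3 of 12 at 0. The part of these cells or of liver RNA in the Mup3 level was not tested.

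**Figure D5:**
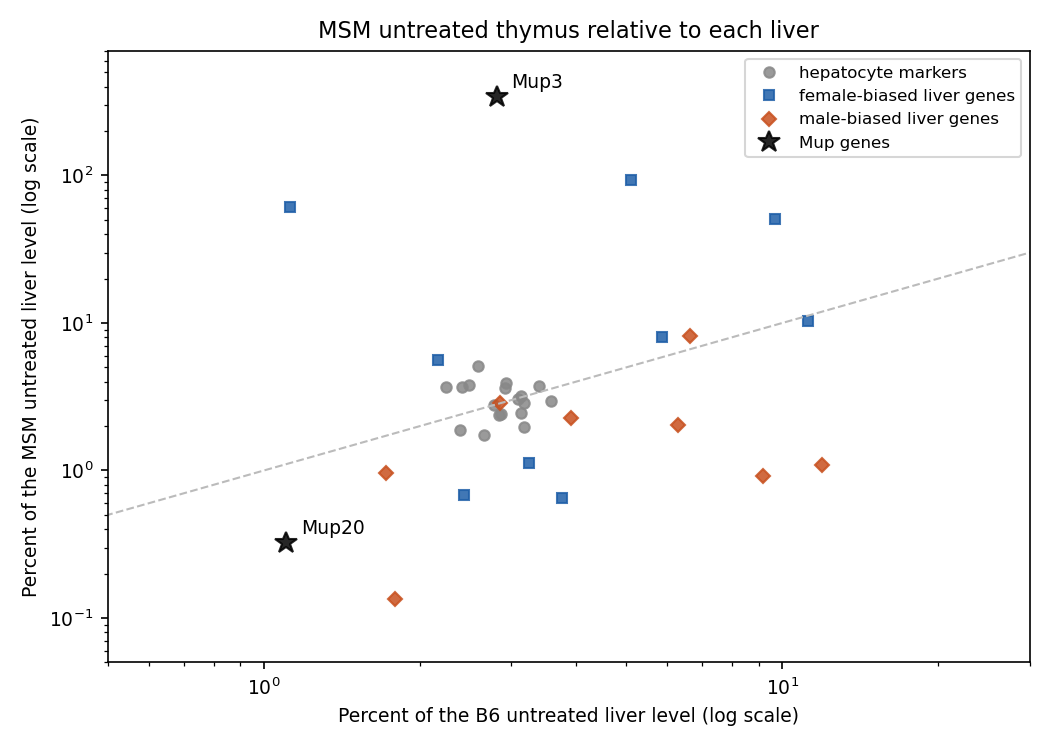
Level in the MSM untreated thymus as a percent of the B6 untreated liver (horizontal) and of the MSM untreated liver (vertical), both on log scales, for Mup genes (stars), hepatocyte markers (grey circles) and female-biased (blue squares) and male-biased (orange diamonds) liver genes above 0 in the thymus and at 5 FPKM or more in both livers. The dashed line marks equal percentages, and sex-biased genes scatter widely around it. Hepatocyte markers cluster near 3% on both axes, while Mup3 lies at 2.81% and 342%.

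Mup3 was the only Mup gene to pass the filter in thymus, and it did so through that 1 library. Its strain difference there was 3.59 ± 1.30 (limma adjusted p = 0.336, unadjusted p = 0.0316), made of 6.75 in the untreated and 0.43 in the injected pair, so 0 of 1 gene passed where 0.973% of 11610 thymus genes did, 0.379% higher and 0.594% lower. Without the MSM untreated thymus its mean fell below 1 FPKM and it was not tested. Without the MSM injected thymus it passed (6.49, limma adjusted p = 0.0391), as a difference between the MSM untreated thymus and both B6 thymi.

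Liver levels exceeded thymus levels in the same mice for Mup20, Mup1 and Mup21. The liver minus thymus difference was 7.50 ± 0.54 for Mup20 (SE, n = 4 mice, limma adjusted p = 0.000134), 5.26 ± 1.06 for Mup1 (adjusted p = 0.00633) and 2.24 ± 0.75 for Mup21 (adjusted p = 0.0399). Mup3 (6.10 ± 2.26, adjusted p = 0.0559) and Mup2 (3.31 ± 1.25, adjusted p = 0.0601) did not pass. Mup1 and Mup20 were higher in liver in 4 of 4 mice and the other 3 genes in 3 of 4. So 3 of the 5 genes tested were higher in liver and 0 lower, where 60.7% of 12880 genes passed, 28.6% higher and 32.1% lower. Mup1, Mup2, Mup20 and Mup21 passed the filter through their liver levels alone, which fixed their direction, so this count too is a description. Without the MSM untreated mouse all 5 passed by limma, and Mup3 differed by 8.71 (adjusted p = 0.00612).

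The strain difference was compared between the organs by fitting each mouse's log2 ratio of liver to thymus. It differed for Mup2 (-6.12 ± 0.41, limma adjusted p = 0.0136) and for Mup1 (5.09 ± 0.54, adjusted p = 0.0443), 2 of 5 genes, where 0.365% of all genes passed, 0.109% higher and 0.256% lower. Mup2 passed the filter through the B6 livers alone, so its contrast is a description. Mup1 passed it through liver alone and was below the floor in every thymus, so its contrast mostly restates the liver difference. For Mup3 the strain differences were -6.88 and -6.92 in the untreated and injected livers and 6.75 and 0.43 in the thymi. The contrast between tissues was -10.49 ± 1.39 and missed the threshold (limma adjusted p = 0.0796). With any 1 mouse omitted neither Mup1 nor Mup2 passed, and without the MSM injected mouse Mup3 did (-13.08, limma adjusted p = 0.0347). The call of Mup1 held under 1 of 8 other settings and that of Mup2 under 6 of 8.

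After MegaFasL no Mup gene moved by 2-fold in the same direction in both strains. Treated and untreated libraries come from separately normalized tables with 1 library each, so the change was not tested, and libraries were centred by the median ratio within each tissue. In liver Mup3 differed by -0.65 in B6 and -0.66 in MSM, the most alike of the 5 genes. Mup1 (0.68 and -0.72) and Mup20 (-0.45 and 0.51) went opposite ways in the strains. Mup2 (-0.55 and -2.04) and Mup21 (-0.37 and -1.03) were lower in both, and their MSM values were near or below the floor.

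So 0 of 5 genes passed 2-fold in liver, where 1.64% of 10971 genes were higher and 1.24% lower in both strains. In thymus 0 of 1 passed, where 0.276% were higher and 0.422% lower. Mup3 differed there by 0.50 in B6 and -5.87 in MSM, the latter between the library with liver markers and the injected one. A test of whether the change differed between the tissues called 0 of 5 Mup genes by limma (0 at an unadjusted p under 0.05, adjusted p 0.768 to 0.968), where 0.0388% of all genes passed.

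The authors' deposited confidence intervals of single levels were wide. All 27 of 56 Mup values above 0 had a lower bound of 0, and the upper bound of Mup3 in the B6 untreated liver was 12203 FPKM. For 3 values, all of Mup2, the deposited upper bound was 0, below the level itself. The comparisons above do not use these intervals.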

How the data were processed

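The submitters' processing notes name TopHat, Cuffdiff 2.2.1 and the build mm10. FPKM per gene, with confidence bounds, was deposited in 1 table per treatment, each normalized separately. Annotation and settings: not given in the sources used here. Depth was estimated from 2015 single-transcript genes of at least 1500 nucleotides, whose length was reduced by 200: a scale of 1.58 to 3.43 fragments per FPKM and kilobase made 70.7% to 75.2% of low values whole within 0.1, against 20% by chance.

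Tests used limma 3.58.1 with trend (R 4.3.3) on log2(FPKM + 1), which understates changes of low genes, for genes averaging 1 FPKM or more. Tests were two-sided, and p was adjusted over all genes by Benjamini-Hochberg with a threshold of 0.05. Alternatives were other added values, filters, scalings, limma settings and omitted libraries. Strain fits held treatment as a term and 1 residual degree of freedom. With 1 library or mouse omitted, the strain fits and the contrast between tissues held no treatment term, so treatment entered their residual. Liver minus thymus held mouse as a block, since the series' design text pairs the organs by mouse. Deviations of the paired libraries from tissue means correlated at 0.056 to 0.254 over 9701 genes, and those of different mice at -0.197 to 0.141. The MSM untreated liver correlated more with the other MSM thymus (0.141) than with its own (0.056). The code was tested on simulated data.

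Transcripts came from GENCODE M21 (mm10), the longest protein-coding one per gene, aligned with MAFFT 7.526. All 7 members were named, with up to 4 genes per list by size of the liver strain difference and the 3 nearest profiles per member. Cyp2d9, C6 and Hao2 were named as counted calls. The lists held 139 genes, of which 135 were measured. Members and lists were chosen with earlier results of these data known.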

Additional observations from a re-analysis of the deposited data

Results flagged for a closer look

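The strain difference of 2 genes differed between liver and thymus by a test of the difference itself. For Mup1 the MSM minus B6 difference was larger in liver by 5.09 on the log2 scale, in the same direction in both treatments. For Mup2 the contrast was -6.12, also in the same direction in both treatments. Mup2 passed the filter on low values through the B6 livers alone. Thymus levels of both genes were at most 1.90 FPKM, so both contrasts mostly restate the liver differences. Mup1 and Mup2 are 99.4% identical over their aligned coding bases, and the split of fragments between them is uncertain. The 2 contrasts can therefore not be read as separate results.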

How the results depend on the processing

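No sign of a tested Mup difference reversed under any alternative. Of the 5 genes called between strains in liver, adding 0.1 left 3, adding 5 left 4 (Mup20 at an adjusted p of 0.0568), limma without trend 1 and all 8 libraries in the fit 3, and leaving out 1 library left 0 to 0. The liver adjusted p, without leaving out a library, was 6.65e-05 to 0.0821 for Mup3 and 0.0128 to 0.134 for Mup20. In thymus, leaving out 1 library gave 0 to 1 calls. Liver minus thymus gave 2 to 5 when 1 mouse was left out and 2 with 5 added or without a filter, where Mup21 was lost (adjusted p = 0.0534 and 0.0548 by limma), and without the mouse block (no replicate block) 4 genes passed in place of 3. The contrast of strain differences between tissues, 2 genes, gave 0 with 0.1 added, 4 with 5 added, 1 without a filter, 1 with a filter of 5 FPKM, 1 with median-ratio centring, 0 on a common sum, 1 without trend, 1 with robust moderation and 0 to 1 when 1 mouse was left out. The causes were not tested. Over all genes, 0 to 310 passed between livers (161 as reported), 10 to 301 between thymi (113) and 0 to 132 in the contrast (47). A common sum moved the median of all genes from 0.01 to -0.15 between livers and from -0.13 to -1.10 between tissues, where 2082 genes were then higher and 7294 lower in liver, against 3687 and 4134. Summing all 20 Mup genes, an alternative chosen after seeing the data, left the liver sum difference at -1.66. For a Mup transcript of usual length, levels under 2.32 to 2.62 FPKM in liver, by library, lie within 3 fragments. The limit depends on transcript length and was 3.99 FPKM for Mup21 in the MSM injected liver.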
